A study of Homo sapiens with 6 samples.

Results

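A set of 10 nuclear receptor genes linked to monocyte differentiation were followed here in THP-1, a human acute monocytic leukaemia cell line, supplied by 2 repositories. They are VDR, RARA, RARG, RXRA, RXRB, PPARG, PPARD, NR4A1, NR4A3 and NR3C1. The genes were chosen by name, and the deposited transcript values were added up per GENCODE 29 symbol. They make 10 of 34893 genes with a value, and 9 of them were among the 14569 genes with enough counts to be tested. NR4A3 did not pass that filter.

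Poly(A) RNA was sequenced from untreated cells of the stocks held by 2 banks, ATCC in the United States (3 libraries) and DSMZ in Germany (3 libraries). Both stocks grew side by side in RPMI with 20% fetal bovine serum at 37 °C and 5% CO2, for 48 h and, after a split, for another 24 h, and were harvested in the log phase of growth. The labels state that replicate expansions were independent, so p-values measure the spread between expansions of 1 stock per bank. Whether a difference belongs to the bank or to the particular stock it sent cannot be told apart.

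Nuclear receptors are transcription factors, most of them switched by a small lipid-soluble ligand. The vitamin D receptor, the retinoic acid receptors and the PPARs bind DNA as dimers with a retinoid X receptor (RXR), at repeats of the half-site AGGTCA. The glucocorticoid receptor waits in the cytosol on heat shock chaperones and binds DNA mainly with a copy of itself, while the NR4A receptors act without a known classical ligand and are immediate early genes. Vitamin D, retinoic acid and glucocorticoids are all known to push monocytic leukaemia cells or monocytes along differentiation, and PPARG is known for lipid handling in macrophages.

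Levels are given in TPM, which is scaled by transcript length, so that genes can be compared with each other. Fold changes come from edgeR's quasi-likelihood test on counts and are log2 differences, DSMZ minus ATCC, with a standard error and a p-value adjusted over all tested genes (threshold 0.05). The libraries held 23413428 to 37119721 estimated counts. By that test 7261 of 14569 genes (49.8%) differed between the stocks, with 3515 (24.1%) higher and 3746 (25.7%) lower in DSMZ, and a median log2 fold change over all genes of 0.01. In base composition ATCC replicate 2 departed from its group: over the tenth of genes lowest in GC its median log2 level differed by -0.92 from the mean of the other ATCC libraries, and over the tenth highest in GC by 0.34. The monocytic markers were detected in both stocks (9 of 9 genes tested, summed level 741 to 1119 CPM in ATCC and 866 to 993 CPM in DSMZ). The 4 B cell markers summed to 1.78 to 2.69 CPM in ATCC and 10.3 to 13.3 CPM in DSMZ. The 4 T and NK cell markers summed to 5.58 to 7.31 CPM in ATCC and 2.00 to 2.56 CPM in DSMZ. Among them, the B cell gene MS4A1 and the T cell gene CD3E had 0 counts in every library.

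Of the 9 tested receptor genes, 5 passed the test (against 49.8% of all tested genes), 2 higher and 3 lower in DSMZ. RARG and NR4A1 rose, RXRA, PPARG and VDR fell, and PPARD, NR3C1, RARA and RXRB did not pass. Without ATCC replicate 3, DSMZ replicate 1 or DSMZ replicate 2, 3 genes passed, and VDR and NR4A1 did not. The libraries of the 2 stocks did not overlap in CPM for 6 of the 9 genes, against 62.4% of all tested genes. The median log2 fold change of the 9 genes was -0.08. In these bulk samples fewer cells expressing a gene and less RNA per cell cannot be told apart.

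**Figure D1:**
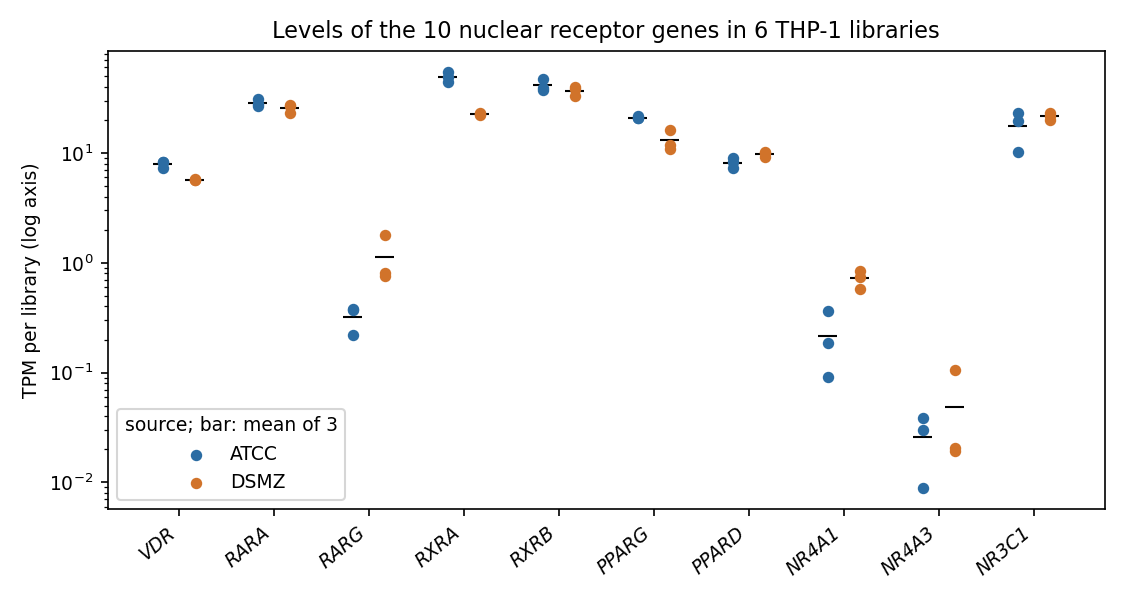
Level of the 10 receptor genes in each library, in TPM on a log axis, with 1 point per library coloured by stock and a bar at the mean of 3. RXRA, PPARG and VDR sit higher in every ATCC library than in any DSMZ library, RARG and NR4A1 sit higher in DSMZ, and NR4A3 lies near 0 throughout.

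The set spans a wide range of levels. In ATCC, RXRA was the most abundant at 49.5 ± 5.27 TPM (SD, n = 3), followed by RXRB at 41.5 ± 5.22, RARA at 28.4 ± 2.28, PPARG at 21.0 ± 0.448, NR3C1 at 17.6 ± 6.57, PPARD at 8.12 ± 0.862 and VDR at 7.96 ± 0.601 TPM. RARG (0.323 ± 0.0895), NR4A1 (0.214 ± 0.139) and NR4A3 (0.0257 TPM) were near the lower limit. Neighbours in this order whose libraries overlapped were RXRA and RXRB, PPARG and NR3C1, PPARD and VDR, and RARG and NR4A1. In DSMZ the order began with RXRB at 37.0 ± 3.37 TPM and RARA at 25.8 ± 2.46, and RXRA came next at 22.5 ± 0.457, overlapping with NR3C1 at 21.5 ± 1.53. PPARG (13.0 ± 2.95), PPARD (9.83 ± 0.482) and VDR (5.73 ± 0.0642 TPM) followed without overlap. RARG (1.12 ± 0.587) and NR4A1 (0.723 ± 0.135) overlapped with each other, and NR4A3 was last at 0.0485 TPM.

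The common dimer partner changed most clearly. RXRA (ENSG00000186350, chr9:134317098-134440585, plus strand, GRCh38) encodes the retinoid X receptor that VDR, the RARs and the PPARs pair with. Its level was 44.6, 55.1 and 48.8 TPM in ATCC replicates 1 to 3 and 23.0, 22.1 and 22.5 TPM in DSMZ replicates 1 to 3. Every DSMZ library was below every ATCC library, and the DSMZ libraries were close to each other. The log2 fold change was -1.04 ± 0.12 (SE, adjusted p = 0.000355), a level 2.06-fold higher in ATCC. RXRA lies in a stretch of chromosome 9 where most genes were lower in DSMZ: the 116 tested genes within 5 Mb had a median log2 fold change of -0.57, 86 of them passed the test, and the median of chromosome 9 was -0.41. The part of this neighbourhood in the RXRA difference was not tested.

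RXRB (ENSG00000204231, chr6:33193588-33200688, minus strand) is the second RXR gene and lies in the major histocompatibility complex. Its level was 39.3, 47.4 and 37.7 TPM in ATCC and 39.7, 38.1 and 33.2 TPM in DSMZ. The stocks overlapped, and the log2 fold change of -0.13 ± 0.12 did not pass (adjusted p = 0.436) and was 0.01 without ATCC replicate 2. The annotation used by the authors lists 37 RXRB transcripts, of which only 5 are on the primary assembly, and 98.1 to 98.7% of its estimated counts fell on the copies on alternative sequences. Gene sums over near-identical copies are uncertain. Counted on the primary copy alone, the log2 fold change was -0.33 and did not pass either. The third gene, RXRG, had 0 counts in every library. The ratio of RXRA to RXRB TPM, chosen after the values were seen and so not tested, was 1.13, 1.16 and 1.29 in ATCC and 0.580, 0.580 and 0.677 in DSMZ, so that RXRA exceeded RXRB in each ATCC library and was below it in each DSMZ library. This order depends on the scale and on 1 transcript. In CPM, with no scaling by length, RXRA was above RXRB in all libraries (100 to 111 against 57.4 to 62.5 in DSMZ), and 87.5 to 97.1% of RXRA TPM came from a single transcript, RXRA-201, that is not typed as protein-coding.

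The vitamin D receptor gene was lower in DSMZ by a smaller step. VDR (ENSG00000111424, chr12:47841537-47943048, minus strand) encodes the receptor of active vitamin D. Its level was 7.27, 8.35 and 8.26 TPM in ATCC and 5.67, 5.72 and 5.80 TPM in DSMZ. The 2 stocks did not overlap, and the log2 fold change was -0.34 ± 0.11 (adjusted p = 0.0382). The call was near the threshold: it was lost in 7 of 19 other settings, with an adjusted p of 0.103 without ATCC replicate 3, 0.114, 0.185 and 0.0903 without DSMZ replicates 1, 2 and 3, 0.0507 with DESeq2, 0.0849 with no filter on low counts and 0.0773 with the replicate number as a block. The genes around VDR moved the other way: the 77 tested genes within 5 Mb had a median log2 fold change of 1.03, which was 0.53 over 10 Mb.

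The retinoic acid receptors behaved differently from each other. RARA (ENSG00000131759, chr17:40309192-40357643, plus strand), the main RAR of myeloid cells, stood at 26.5, 30.9 and 27.8 TPM in ATCC and at 27.6, 26.8 and 23.0 TPM in DSMZ. These overlapped, and the log2 fold change was -0.08 ± 0.13 (adjusted p = 0.657), or 0.07 without ATCC replicate 2. RARG (ENSG00000172819, chr12:53210567-53232980, minus strand) encodes the gamma form. It was low in both stocks, at 0.220, 0.377 and 0.373 TPM in ATCC and 0.760, 1.80 and 0.811 TPM in DSMZ. Every DSMZ library exceeded every ATCC library, with a log2 fold change of 1.53 ± 0.28 (adjusted p = 0.00318). This rests on few reads, 38 counts over the ATCC libraries and 117 over the DSMZ libraries. RARG lies on chromosome 12 with VDR and NR4A1, and the 179 tested genes within 5 Mb of it had a median log2 fold change of 0.56, whose part in the result was not tested. RARB, the beta form, had 2 counts in ATCC and 1 in DSMZ.

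**Figure D2:**
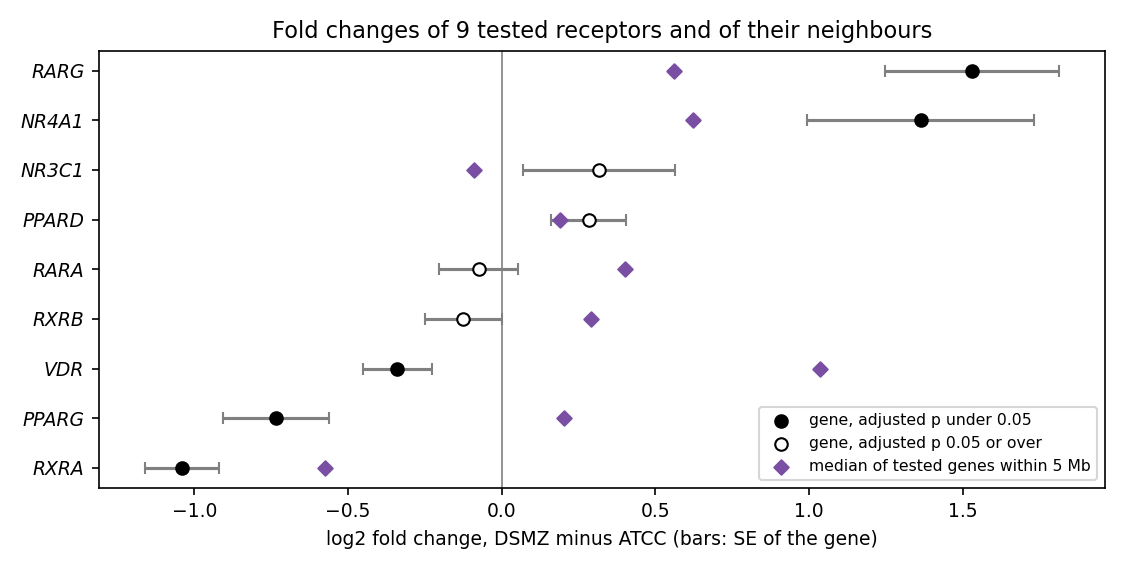
Log2 fold change (DSMZ minus ATCC) of the 9 tested receptor genes with its standard error as the bar and filled points for an adjusted p under 0.05, beside the median of the tested genes within 5 Mb (diamonds). RXRA lies below its neighbours' median of -0.57, and VDR lies at -0.34 where its neighbours' median is 1.03.

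The PPAR genes, receptors for fatty acids and their derivatives, also divided. PPARG (ENSG00000132170, chr3:12287368-12434356, plus strand), the form tied to lipid uptake in macrophages, stood at 21.5, 20.8 and 20.7 TPM in ATCC and at 16.3, 10.8 and 11.8 TPM in DSMZ. The DSMZ libraries were all lower. They were more scattered in TPM (SD 2.95 against 0.448) but not in CPM, the scale nearer to the test (SD 2.74 against 2.64). The log2 fold change was -0.73 ± 0.17 (adjusted p = 0.0093). PPARD (ENSG00000112033, chr6:35342558-35428191, plus strand), the widely expressed delta form, stood at 8.94, 8.20 and 7.22 TPM in ATCC and 10.1, 9.28 and 10.1 TPM in DSMZ. These did not overlap, but the log2 fold change of 0.28 ± 0.12 missed the threshold (adjusted p = 0.0923). It passed without ATCC replicate 2 (0.34, adjusted p = 0.0202) and with a correction for GC content (0.32, adjusted p = 0.034). The alpha form PPARA did not pass (0.23, adjusted p = 0.0744).

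PPARG is transcribed from several start sites. The upstream windows of the first and the last of them are shown because part of the transcript estimates lies at starts near these windows. Starts between them held a part too. Both are the 250 bases before a start on the plus strand of chromosome 3 (GRCh38.p14, RefSeq), at chr3:12287118-12287367 and chr3:12351167-12351416. Capitals mark AGGTCA, the half-site of RXR dimers, searched on both strands.
PPARG first start: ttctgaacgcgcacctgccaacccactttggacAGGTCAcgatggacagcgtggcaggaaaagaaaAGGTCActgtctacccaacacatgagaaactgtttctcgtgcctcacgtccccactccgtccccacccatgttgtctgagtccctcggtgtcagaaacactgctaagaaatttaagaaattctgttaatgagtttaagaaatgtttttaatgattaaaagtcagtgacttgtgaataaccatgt
PPARG last start: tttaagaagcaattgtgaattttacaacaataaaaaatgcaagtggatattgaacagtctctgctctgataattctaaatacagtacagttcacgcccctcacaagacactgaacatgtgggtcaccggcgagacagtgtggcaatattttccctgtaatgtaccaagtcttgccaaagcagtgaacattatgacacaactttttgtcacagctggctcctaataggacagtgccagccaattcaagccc
The first window holds 2 matches and the last holds 0. Over the 25 windows of 250 bases of the 9 receptor genes with a promoter entry, 4 held AGGTCA or its reverse complement TGACCT, 1 of RARA and 3 of PPARG, of which a pair overlap. Among all 35116 promoter entries the share was 12.1%. VDR has no entry. A match is a description of the letters and not a bound site.

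Transcripts were sorted by start and joined into a group where consecutive starts lay at most 500 bases apart, so a group can span more. This choice was made after seeing that single transcript estimates trade reads within a gene. The group at the last PPARG start, which holds PPARG-201, took 51.5, 38.1 and 43.6% of PPARG TPM in ATCC and 15.7, 61.3 and 13.3% in DSMZ. The group at the first start took 21.5, 26.6 and 22.2% in ATCC and 49.4, 18.3 and 34.3% in DSMZ. Most of it was PPARG-207, with 16.8, 26.6 and 22.2% in ATCC and 42.7, 17.5 and 32.6% in DSMZ. PPARG-207 starts at 12287901, downstream of the printed first window, which is therefore not directly upstream of it. In DSMZ replicates 1 and 3 the first start held more than the last, and in DSMZ replicate 2 the reverse, so the stocks overlapped at both starts (exact two-sided permutation p = 0.4 for each, where 3 against 3 libraries cannot go below 0.1). Starts between these also held PPARG TPM. PPARG-211, from a start at 12305773, took 12.8, 22.9 and 29.4% in ATCC and 22.6, 0 and 36.2% in DSMZ. The group at 12288838 to 12289111 took 12.9, 12.3 and 0% in ATCC and 6.88, 18.9 and 9.88% in DSMZ.

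**Figure D3:**
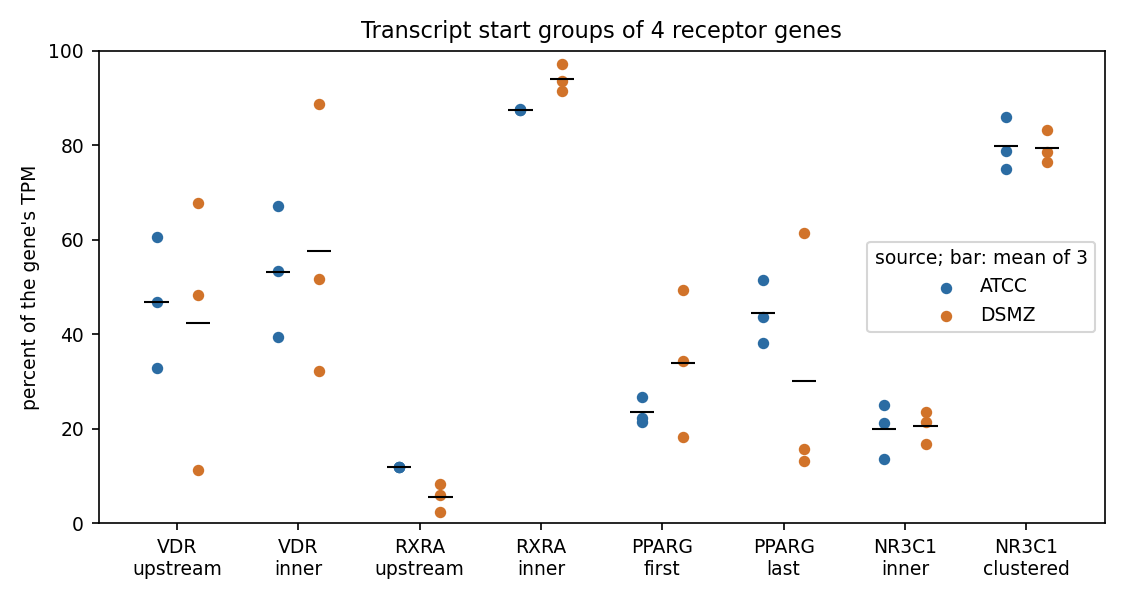
Share of a gene's TPM held by start-site groups, in percent, with 1 point per library and a bar at the mean, for VDR, RXRA, PPARG and NR3C1 (clustered marks the NR3C1 starts that lie close together). The PPARG groups of the 2 stocks overlap, with DSMZ replicate 2 apart from the other DSMZ libraries at the last start, at 61.3%.

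RXRA had 3 transcripts in the annotation, and its estimates were steadier. The transcript RXRA-201, which starts at position 134371971 inside the gene and is typed as a processed transcript, held 87.7, 87.5 and 87.5% of RXRA TPM in ATCC and 93.7, 91.4 and 97.1% in DSMZ. The protein-coding RXRA-202, which starts at 134326580, held 11.9, 12.0 and 12.0% in ATCC and 5.87, 8.35 and 2.38% in DSMZ. The groups did not overlap (exact two-sided permutation p = 0.1, the smallest possible, and 0.567 after adjustment over the transcripts). In TPM, RXRA-202 was 5.29, 6.60 and 5.84 in ATCC and 1.35, 1.84 and 0.534 in DSMZ, while RXRA-201 was 39.1, 48.2 and 42.7 in ATCC and 21.5, 20.2 and 21.8 in DSMZ. Both were lower in each DSMZ library than in any ATCC library. For VDR, the transcript VDR-202 from the outermost start at 47943048 took 32.8 to 60.7% in ATCC and 11.2 to 67.7% in DSMZ, an overlap over most of the range.

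The glucocorticoid receptor depended on 1 library. NR3C1 (ENSG00000113580, chr5:143277931-143435512, minus strand) stood at 23.0, 10.3 and 19.5 TPM in ATCC and 22.9, 21.8 and 19.9 TPM in DSMZ. ATCC replicate 2, the library that departs in base composition, was the only one far from the rest, and NR3C1 has the lowest transcript GC content of the set (40.4%). The part of base composition in the low NR3C1 value of that library was not tested. The log2 fold change was 0.32 ± 0.25 (adjusted p = 0.32). Without ATCC replicate 2 it was 0.07 (adjusted p = 0.45), and with the GC correction 0.25, where it passed (adjusted p = 0.0375). NR3C1-203 was the leading transcript, with 70.6 to 76.3% of NR3C1 TPM in ATCC and 67.6 to 74.1% in DSMZ.

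The NR4A genes, which are induced within minutes by many stimuli, were close to silent in these untreated cultures. NR4A1 (ENSG00000123358, chr12:52022832-52059507, plus strand) stood at 0.0915, 0.366 and 0.186 TPM in ATCC and 0.850, 0.736 and 0.581 TPM in DSMZ. All DSMZ libraries were higher, with a log2 fold change of 1.36 ± 0.37 (adjusted p = 0.0175) from 43 counts in ATCC and 116 in DSMZ. The call was lost without ATCC replicate 3 (adjusted p = 0.0544), without DSMZ replicate 1 (0.0596) and without DSMZ replicate 2 (0.0528). NR4A1 is flanked by genes higher in DSMZ, with a median of 0.62 over 158 tested genes within 5 Mb. NR4A2 did not pass (0.51, adjusted p = 0.241). NR4A3 (ENSG00000119508, chr9:99821855-99866891, plus strand) had 1, 5 and 4 counts in ATCC and 2, 6 and 3 in DSMZ, which overlap. No fold change is given for it.

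The window before the first NR4A3 start is shown as the promoter of an immediate early gene that gave almost no reads. It covers chr9:99821635-99821854 (plus strand, GRCh38.p14, RefSeq), and capitals mark TGACG or its reverse complement CGTCA, the half-site of the cyclic AMP responsive factor CREB.
NR4A3: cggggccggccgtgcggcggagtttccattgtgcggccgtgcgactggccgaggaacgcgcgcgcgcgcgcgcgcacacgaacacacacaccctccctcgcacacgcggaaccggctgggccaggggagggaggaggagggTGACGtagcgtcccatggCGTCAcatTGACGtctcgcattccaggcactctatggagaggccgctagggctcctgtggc
The window holds 3 matches, 2 forward and 1 reverse. TGACG on either strand was found in 4 of the 25 windows, from PPARD, NR4A3 and NR3C1, and in 21.2% of all promoters. The full palindrome TGACGTCA was in 0 of the 25 windows and in 1.65% of all promoters.

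The make-up of the set was compared through each gene's share of the summed TPM of the 10 genes. The sum was 171, 182 and 171 TPM in ATCC and 147, 137 and 128 TPM in DSMZ, with no overlap (exact two-sided permutation p = 0.1, the smallest possible). RXRA took 28.3 ± 2.16% in ATCC and 16.4 ± 1.02% in DSMZ (SD, n = 3; exact permutation p = 0.1, adjusted 0.143). RXRB took 23.7 ± 2.10% and 26.9 ± 0.870% (exact p = 0.2). PPARG went from 12.1 ± 0.570% in ATCC to 9.41 ± 1.62% in DSMZ, and NR3C1 from 10.2 ± 4.03% to 15.7 ± 0.169%. These sizes depend on what is summed. With protein-coding transcripts only, the differences (DSMZ minus ATCC, in percentage points) were -5.40 in place of -11.9 for RXRA, -8.05 in place of -2.64 for PPARG and -0.08 in place of 3.20 for RXRB. Without length scaling that of RXRA was -17.0 and that of NR3C1 was 10.9 in place of 5.53. In the protein-coding setting the RXRB copies on alternative sequences, which have no transcript type, were left out. They held 98.1 to 98.7% of RXRB counts, and the part of their loss in the differences was not tested. RARA (16.3 to 18.8%) and PPARD (4.65 to 7.19%) held larger mean shares in DSMZ. The shares of a library add up to the whole, so a share can rise without a rise in level. In mean TPM, RARA (28.4 in ATCC, 25.8 in DSMZ) and RXRB (41.5 and 37.0) were lower in DSMZ. PPARD (8.12 and 9.83) and NR3C1 (17.6 and 21.5) were higher, and none of these genes passed the gene test. Of the 10 shares none could pass an adjusted threshold of 0.05 with 3 libraries a group.

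**Figure D4:**
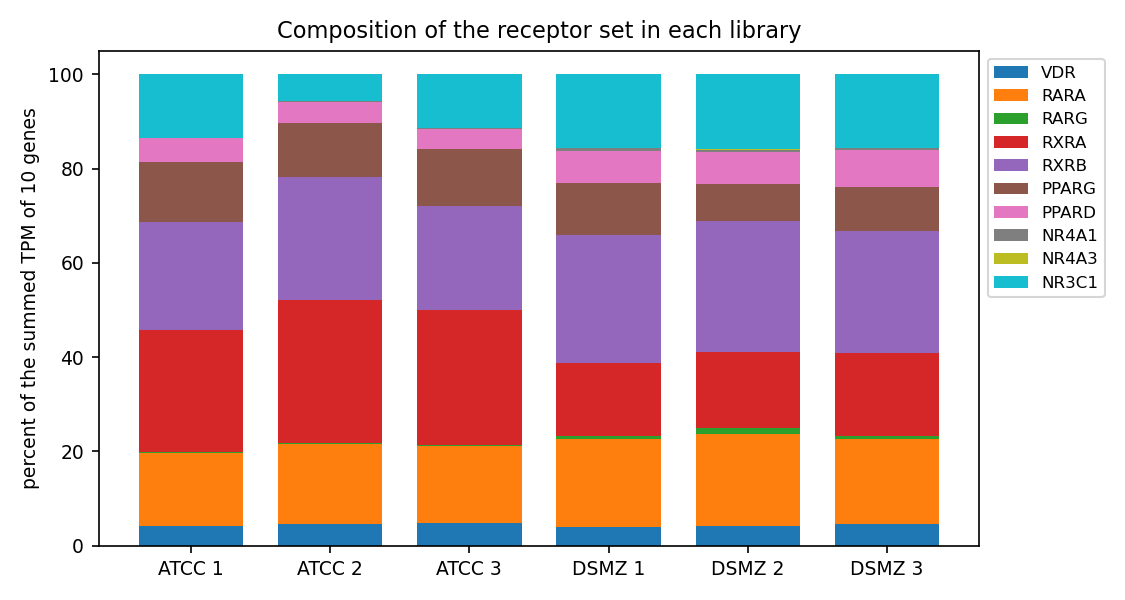
Share of each receptor gene in the summed TPM of the 10 genes, in percent, as stacked bars with 1 bar per library. RXRA takes 26.0 to 30.3% of the ATCC bars and 15.6 to 17.6% of the DSMZ bars.

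The remaining nuclear receptors were examined as a list of 38 genes, of which 21 were tested. Counts in this and the following lists stand beside 24.1% of all tested genes higher and 25.7% lower in DSMZ. In DSMZ 4 were higher (2 with limma on log2 TPM) and 8 were lower, with a median log2 fold change of -0.03. The progesterone receptor gene PGR fell by 5.34 on the log2 scale (SE 0.40, adjusted p = 5.6e-05), from 8.93, 2.87 and 5.93 TPM in ATCC to 0.110, 0.159 and 0.120 TPM in DSMZ. NR2F2, an orphan receptor, fell by 1.64, and NR1H3, the liver X receptor alpha that senses oxysterols and also pairs with RXR, fell by 1.03, from 10.7 to 14.1 TPM in ATCC to 6.04 to 9.82 TPM in DSMZ.

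**Figure D5:**
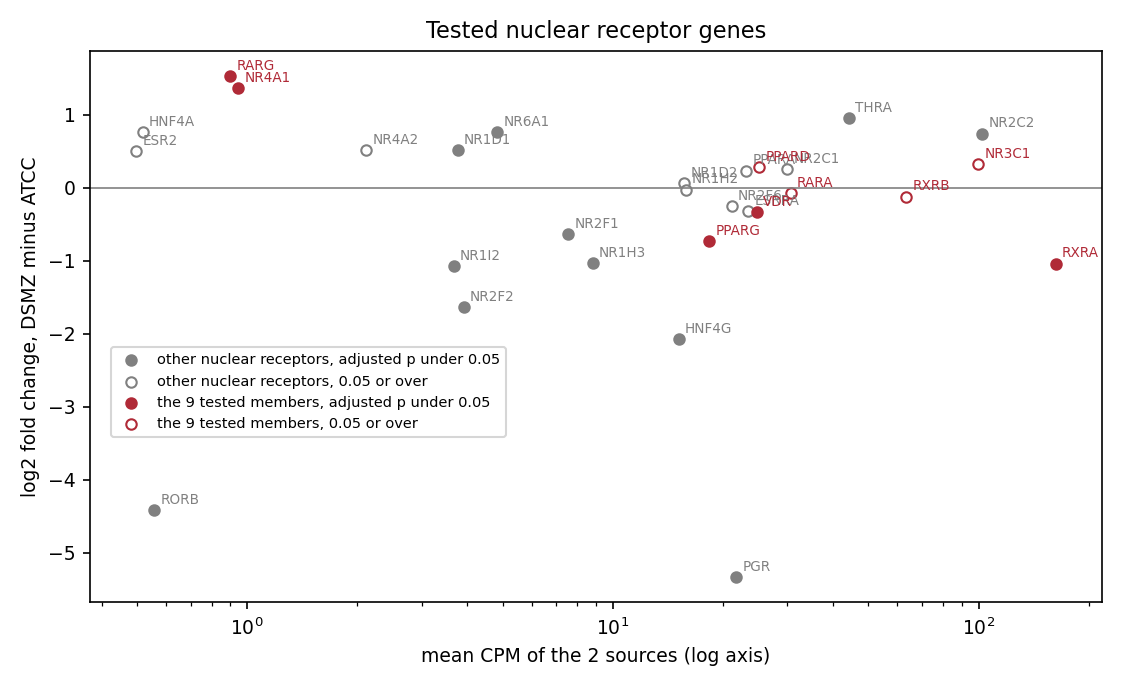
Log2 fold change (DSMZ minus ATCC) of tested nuclear receptor genes against their mean level in CPM on a log axis, with the 9 tested genes of the set in red, other receptors in grey, and filled points for an adjusted p under 0.05. PGR has the lowest value at -5.34 and RARG the highest at 1.53.

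Of 18 corepressors and coactivators, all tested, 10 were higher and 3 lower in DSMZ (5 lower without ATCC replicate 2), with a median of 0.46. NCOR1, a corepressor of unliganded receptors, rose by 0.88 ± 0.13 (adjusted p = 0.00127), from 32.0 to 43.0 TPM in ATCC to 64.6 to 72.1 TPM in DSMZ. EP300, a histone acetyltransferase, rose by 0.62, and PRMT1, an arginine methyltransferase, fell by 0.85. PPARGC1A, the PPARG coactivator of mitochondrial genes, had 10 counts in the ATCC libraries together and 777 in the DSMZ libraries, at 0.0178 to 0.0358 and 1.93 to 2.66 TPM.

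Genes that supply or remove ligands moved in both directions. Of 6 vitamin D genes 5 were tested, 2 were higher and 1 lower in DSMZ. CYP27B1, which makes the active hormone, rose by 1.16 ± 0.21 (adjusted p = 0.00286), and CYP27A1, a mitochondrial sterol and vitamin D hydroxylase, fell by 0.90 ± 0.22 (adjusted p = 0.0116). The CYP27A1 call was lost without DSMZ replicate 3 (adjusted p = 0.0504) and with limma on log2 TPM (0.103 to 0.11). The endocytic receptor gene CUBN rose by 1.65 in counts, but its TPM overlapped (0.0245 to 0.205 in ATCC, 0.082 to 0.104 in DSMZ) and gave a log2 difference of -0.03.

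Among 14 retinoid genes 8 were tested, 2 were higher and 3 lower, with a median of -0.38. RDH10 fell by 1.01, DHRS9 by 0.62 and ALDH1A1 by 1.79. All of them encode enzymes of retinoid oxidation. Of the 3 fatty acid carriers that can bring ligand to PPARs, FABP5 fell by 0.83, from 315 to 373 TPM in ATCC to 187 to 194 TPM in DSMZ. FABP3 had 2 counts in ATCC against 380 in DSMZ. The library-scaled ratio was 174, and its 95% counting interval ran from 47.9 to 1444.

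In glucocorticoid activation and receptor folding, 11 of 12 genes were tested, 2 were higher and 2 lower, with a median of -0.01. HSD11B1, which turns cortisone into cortisol, fell by 2.31 ± 0.11 (adjusted p = 1.1e-05), from 79.3 to 84.5 TPM in ATCC to 15.1 to 18.9 TPM in DSMZ. The cochaperone FKBP4 rose by 1.58 and STIP1 fell by 0.65. FKBP5, a cochaperone that is also a glucocorticoid target, rose by 0.41 ± 0.12 (adjusted p = 0.0259), a call lost in each of 4 leave-one-out fits, without ATCC replicate 3 and without DSMZ replicate 1, 2 or 3 (adjusted p 0.061 to 0.0822), and with limma on log2 TPM (0.0581 to 0.0586). Without ATCC replicate 2, 4 genes of this list were higher.

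Of 8 genes upstream of NR4A expression, all tested, 2 were higher and 1 lower, with a median of 0.17. HDAC7, a class IIa histone deacetylase, rose by 1.33, the CREB coactivator CRTC2 rose by 0.55 and CRTC3 fell by 0.47. The CRTC3 call was lost without DSMZ replicate 2 or 3 (adjusted p = 0.0705 and 0.065), which left 0 lower. Without ATCC replicate 1, 4 genes of the list were higher, and without ATCC replicate 2, 2 were lower.

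Genes known as targets of the receptors were counted in 4 lists. Over all tested genes 49.8% passed, 24.1% higher and 25.7% lower in DSMZ, and the 5 of 10 vitamin D receptor targets that passed are near 49.8%. Of 11 vitamin D receptor targets 10 were tested, 0 were higher and 5 lower in DSMZ (1 higher without ATCC replicate 2 or DSMZ replicate 3), with a median of -0.70 against 0.01 over all genes. FBP1, a gluconeogenic enzyme, fell by 3.08 ± 0.31 (adjusted p = 0.000186), from 22.1 to 32.8 TPM in ATCC to 1.64 to 3.52 TPM in DSMZ. SLC37A2, a sugar phosphate transporter, fell by 1.84, CD14, the lipopolysaccharide co-receptor, by 2.01 and ASAP2 by 0.77. CYP24A1, the enzyme that breaks down vitamin D and one of the genes VDR induces most strongly, had 0 counts throughout. A count of 0 leaves room for a level of at most 0.0368 CPM in the ATCC stock and 0.0338 CPM in the DSMZ stock (3 counts each).

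Of 10 PPAR targets 7 were tested, 1 was higher and 4 were lower, with a median of -0.68. PDK4, a brake on pyruvate oxidation, fell by 1.56, CPT1A and SLC25A20, which carry fatty acids into mitochondria, by 0.68 and 0.84, while ACADVL, an enzyme of fatty acid oxidation, rose by 0.70 ± 0.11 (adjusted p = 0.00168). Of 10 retinoic acid receptor targets 7 were tested, 2 were higher and 3 lower, with a median of -0.03. DHRS3 rose by 1.18 and CEBPE, a granulocyte transcription factor, by 1.42, and TGM2 fell by 1.43.

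Of 12 glucocorticoid receptor targets 10 were tested, 3 were higher and 1 lower (2 lower without ATCC replicate 2 or 3), with a median of 0.19. ZBTB16 rose by 3.96 ± 0.24 (adjusted p = 2.36e-05), from 0.456 to 1.43 TPM in ATCC to 8.20 to 12.7 TPM in DSMZ. The clock gene PER1 rose by 0.97, and ANXA1, a mediator of anti-inflammatory action, fell by 2.37 (71.8 to 123 TPM in ATCC, 15.0 to 21.4 TPM in DSMZ). These genes respond to many inputs besides the receptors, and no receptor activity was measured.

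Markers of other cell types were compared as whole lists. The 4 B cell markers summed to 1.78 to 2.69 CPM in ATCC and 10.3 to 13.3 CPM in DSMZ, where CD79A and CD79B rose by 2.13 and 3.28 and MS4A1 was at 0. The 4 T and NK cell markers summed to 5.58 to 7.31 CPM in ATCC and 2.00 to 2.56 CPM in DSMZ, nearly all of it NKG7, with CD3E at 0. The 4 erythroid markers summed to 0.071 to 0.106 CPM in ATCC and 0.528 to 0.743 CPM in DSMZ, without overlap. The erythroid factor KLF1, the only one of them tested, rose from 3 to 47 counts, a ratio of 14.4 (95% counting interval 4.62 to 72.1). The 4 fibroblast markers summed to 2.36 to 3.29 CPM in ATCC and 4.25 to 5.38 CPM in DSMZ, and of the 2 tested PDGFRB rose by 1.00 in counts, a call lost with limma on log2 TPM (adjusted p 0.429 to 0.438). The 4 epithelial markers overlapped, at 3.60 to 4.43 CPM in ATCC and 3.72 to 5.11 CPM in DSMZ, and the 1 tested did not pass. Of the 9 monocytic markers 4 were lower and 2 higher in DSMZ and 3 did not pass, with a median log2 fold change of -0.25. Those with the smallest adjusted p were CD33, CD14 and FCGR1A, which fell, and MPO, which rose (log2 fold changes of -1.31, -2.01, -0.44 and 3.05). The FCGR1A call was lost without DSMZ replicate 1 or 3 (adjusted p = 0.0713 and 0.0522). Their part in the receptor differences was not tested.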

How the data were processed

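Poly(A) RNA of 6 THP-1 cultures was sequenced from a stranded library kit, per the labels' protocols. Reads went through bcl2fastq 2.20, Trimmomatic 0.35 and kallisto 0.43.0, with build GRCh38, per the submitters' processing notes. Which annotation release supplied the transcripts is not stated in the labels or file headers. The authors deposited, per the file headers, an estimated count and a TPM value for each of 179973 transcripts in each library. The deposited estimated counts carry no normalization, and TPM as deposited is scaled by effective length and by the library total.

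Both were summed per GENCODE 29 gene symbol. Of the transcripts, 163714 (91.0%) matched the primary assembly, 14222 matched by symbol only (2.42 to 2.85% of the counts) and 2037 matched no gene and were left out (0.181 to 0.199%). Summed counts were rounded and tested with edgeR 4.0.16 in R 4.3.3 (filterByExpr, TMM, quasi-likelihood F test, Benjamini-Hochberg over 14569 genes). The biological coefficient of variation was 15.9%. The standard error is the absolute log2 fold change over the square root of F. Shares were tested by exact two-sided permutation over libraries. Counting intervals cover counting error only. No libraries were alike within sampling noise (smallest chi-square per degree of freedom 4.59).

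The receptor genes, lists and tests were chosen with earlier results of these data known. Named genes were all 10 receptors, the 4 smallest adjusted p-values past the threshold in each list, and transcripts with at least 10% of a gene. Some list genes are counted in their lists but not reported here. RXRG, RARB, PPARA, NR4A2 and CYP24A1 were named outside that rule, after their values were seen, as were MS4A1 and CD3E. On simulated data for the comparison of DSMZ with ATCC over 14569 genes, the test recovered 8 of 67 altered genes at a 1.5-fold change, 41 of 67 at 2-fold and 63 of 66 at 4-fold and made 8 false calls. The simulation altered a far smaller part of the genes than the 49.8% that passed in the data, so these rates need not hold there. Alternatives were other normalizations, DESeq2 1.42.0, limma 3.58.1 on log2(TPM + 0.5, 0.1 or 1), other low-count filters, a GC correction, a replicate block, primary assembly transcripts only, thinning and leaving out each library. Start-site groups and the ratio of RXRA to RXRB were added after seeing the data. Promoter windows are RefSeq sequences of GRCh38.p14. Figures were drawn with matplotlib 3.10.9.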

Additional observations from a re-analysis of the deposited data

How the results depend on the processing

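PPARG, RXRA and RARG kept their direction and their call in all 19 other settings of the gene test. Of 171 values of the 9 tested receptors, 156 stayed called or stayed not called, 10 lost the call and 5 gained it, in PPARD and NR3C1. The 156 include values of RARA and RXRB that changed sign without passing, at 0.07 and 0.01 without ATCC replicate 2. With the GC correction, and with the replicate block and GC correction together, 4 of the receptors were called higher in DSMZ in place of 2. Leaving out each library in turn gave 3 to 6 receptors called, 1 to 3 higher and 2 to 3 lower in DSMZ, and 5506 to 9511 genes called in all. Of 887 values of 47 named list genes, 866 held, 18 lost the call with the same sign, and 3 lost the call with a changed sign. These 3 were CUBN, at -0.027, -0.018 and -0.017 with limma on log2(TPM + 0.5), (TPM + 0.1) and (TPM + 1) (adjusted p = 0.879, 0.97 and 0.869). The cause was not tested. In the values for NR4A1 and RARG, fold changes on log2(TPM + 1) are smaller by construction, at 0.51 and 0.65. Some list counts moved by more than 1.5 times. With the GC correction 4 glucocorticoid chaperone genes and 4 genes upstream of NR4A were higher in place of 2 each. It also gave 5 coactivators or corepressors lower in place of 3, 2 genes upstream of NR4A and 2 glucocorticoid targets lower in place of 1 each, and 1 vitamin D target higher in place of 0. With limma on log2 TPM, 1 vitamin D metabolism gene was higher in place of 2 and 0 lower in place of 1. With a filter of 1 CPM, 1 retinoid gene and 1 vitamin D metabolism gene were higher in place of 2 each.

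Whether the replicate numbers pair the samples cannot be settled with 3 libraries a stock. Same-numbered libraries deviated together with correlations of 0.01, 0.08 and 0.16, and 2 of the 3 pairs matched best with their own number. With the replicate block 7012 genes were called, against 7261 without it, 4 of the receptors were called against 5, and VDR had an adjusted p of 0.0773. Depth limits RARG, NR4A1 and NR4A3, where a source held at most 117 counts.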

Other observations

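Some other nuclear receptor genes, picked after their values were seen, also differed between the stocks by edgeR's quasi-likelihood test. HNF4G, a relative of the liver receptor HNF4A, fell by 2.08 (adjusted p = 0.00207) from 10.5 to 2.88 mean TPM, and NR1I2, the xenobiotic sensor that pairs with RXR, fell by 1.07 (adjusted p = 0.00306) from 2.52 to 1.18 mean TPM. THRA, a thyroid hormone receptor that also pairs with RXR, rose by 0.95 (adjusted p = 0.000752) from 13.4 to 24.0 mean TPM. NR2C2, an orphan receptor, rose by 0.74 (adjusted p = 0.00167) from 21.0 to 33.5 mean TPM. RORB had 89 counts over the ATCC libraries and 4 over the DSMZ libraries.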
